A study of Mus musculus with 9 samples.

Results

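The receptors of the GDNF family were followed in spinal cholinergic neurons by the rows of 6 genes, chosen by name: the co-receptors Gfra1, Gfra2, Gfra3 and Gfra4, the tyrosine kinase Ret and the adhesion molecule Ncam1. All 6 of 6 were found among the 21457 features measured in 16042 nuclei. The nuclei had been sorted from mice of genotype Chat-iCre:+/wt; SUN-SfGFP:+/wt, aged 8 weeks and with no treatment named, in which Cre from the Chat locus turns on a nuclear-envelope GFP, so that the tag also marks any cell that used Chat earlier in life. Cervical, thoracic and lumbar/sacral cord were each taken from 3 pools of 4 mice (replicate 1 mixed sex, replicate 2 male, replicate 3 female), which gives 9 libraries in which libraries of the same number share mice. The nuclei fall, by the labels deposited with the data, into 5054 skeletal motor neurons in 3 clusters (S1, named Type 3; S2, alpha; S3, gamma), 5613 visceral motor neurons in 10 clusters (V1 to V10) and 5375 interneurons in 8 clusters (I1 to I8).

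GDNF, neurturin, artemin and persephin are secreted factors that keep many neurons alive and shape their contacts. Each binds best to its own GPI-anchored co-receptor, GFRα1 for GDNF, GFRα2 for neurturin, GFRα3 for artemin and GFRα4 for persephin, and the pair then recruits RET, whose kinase carries the signal into the cell. NCAM1 can bind GDNF together with GFRα1 without RET. In muscle, GDNF is a classic survival factor for motor neurons, and gamma motor neurons, which set the tension of muscle spindles, depend on it early in life.

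In genome build GRCm38 (mm10) Gfra1 lies at chr19:58235604-58455909 on the minus strand, Gfra2 at chr14:70890120-70979838 on the plus strand, Gfra3 at chr18:34689898-34720387 on the minus strand, Gfra4 at chr2:131039632-131043088 on the minus strand, Ret at chr6:118151745-118197718 on the minus strand and Ncam1 at chr9:49502136-49798925 on the minus strand. The nuclear RNA was counted over introns and exons together, so each gene's whole span adds to its count. The antisense gene Gm16277 overlaps Gfra1 by 444 bases and the antisense gene Gm11149 lies within Ncam1 over 54304 bases. Both antisense genes have their own rows in the matrix, with counts in 180 nuclei for Gm16277 and 5604 for Gm11149. Whether the counting used strand is not given in the sources used here, so how reads over shared bases were assigned cannot be told.

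Median corrected totals per nucleus ran from 4712 in lumbar/sacral replicate 1 to 16127 in cervical replicate 2, and the class medians were 7393 in skeletal, 7519 in visceral and 6986 in interneuron nuclei. There were 33 barcode sequences found in more than 1 library, covering 66 nuclei. Class markers followed the labels: the median level of Tns1, a skeletal motor neuron marker, was 392.2 CPM (corrected counts scaled to a total of 1000000) in skeletal, 31.4 in visceral and 5.6 in interneuron sums, Zeb2 was highest in visceral (415 CPM) and Pax2 in interneuron sums (209.1 CPM). The astrocyte marker Aqp4 had a median near 0, whereas all 5 of 5 oligodendrocyte markers were found, none at 0, and summed to 54.9 to 92.46 CPM in skeletal, 36.47 to 61.62 in visceral and 37.7 to 54.95 in interneuron libraries. The 4 of 4 microglia markers summed to 28.22 to 147.8, 21.95 to 108.5 and 27.41 to 127.3 CPM. Their part in the class differences below was not tested.

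The region and cluster labels of the male pool need care. Hoxc5, a positional gene, read 16.06 and 15.57 CPM in skeletal nuclei of cervical replicates 1 and 3 but 82.51 in the library labelled cervical replicate 2. It read 101.5 and 94.49 CPM in thoracic replicates 1 and 3 but 9.441 in the library labelled thoracic replicate 2. Both libraries go against their labels, so no difference between cervical and thoracic cord is drawn here, and the contrast of lumbar/sacral against both others, called rostral, does not depend on which of them is which. In the library labelled cervical replicate 2, moreover, the 71 nuclei labelled S2 held Tns1 at 80.47 CPM, against 311.3 to 449.6 in the other 8 libraries, Zeb2 at 133.5 CPM, against 0 to 9.352, and Pax2 at 45.14 CPM, against 0 to 14.31. Levels of S2 are therefore given with and without that library. The same holds for differences of members from the other skeletal clusters, except Ret in S1 against S2. Shares of all genes called between skeletal clusters, and the pathway genes called there, include it. Steps in the order of clusters, products of shares, thinned shares and shares by Ret detection also include it where it met the minimum of nuclei. Levels of the skeletal class also include these nuclei, which were 42.8% of the skeletal nuclei of that library.

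Detection differed widely among the genes. A corrected count of Ncam1 was found in 15333 nuclei (95.6%), of Gfra1 in 9050 (56.4%), of Ret in 4154 (25.9%), of Gfra2 in 1325 (8.26%), of Gfra4 in 956 (5.96%) and of Gfra3 in 592 (3.69%). The highest count in 1 nucleus was 104 for Ncam1, 26 for Gfra1, 8 for Ret and 4 for Gfra2, so a nucleus without a count of Ret or Gfra2 may still hold its RNA. Of the nuclei with Ret, 73.8% were skeletal, 12.5% visceral and 13.7% interneurons. Gfra3 was the reverse, with 91% of its nuclei visceral and only 14 nuclei skeletal. No cell type that should lack these genes was in the matrix, so the lowest cluster of each gene serves as the bound on background.

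Ret and Gfra1 were the members that set skeletal motor neurons apart. Ret, the signalling subunit, ranged over the 9 libraries from 94.3 CPM, with a median of 149.6, to 179.5 CPM in skeletal nuclei, from 6.221, with a median of 10.44, to 42.79 CPM in visceral nuclei, and from 12.76, with a median of 15.46, to 20.87 CPM in interneurons. The lowest skeletal library, the one labelled cervical replicate 2, thus exceeded the highest of either other class. The log2 difference was 2.94 against visceral nuclei (SE 0.20, limma adjusted p = 2.4e-11) and 2.77 against interneurons (SE 0.20, limma adjusted p = 7.98e-11), higher in 9 of 9 libraries in both. Between visceral nuclei and interneurons no difference passed the test, with a log2 value of −0.17 and an interval from −0.58 to 0.24 (limma adjusted p = 0.492).

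Gfra1, the GDNF co-receptor, behaved alike. It ranged from 382.3 CPM, with a median of 553.8, to 714.7 CPM in skeletal nuclei, from 45.44, with a median of 81.32, to 241.4 CPM in visceral nuclei, and from 83.29, with a median of 124, to 160.1 CPM in interneurons. Skeletal libraries again lay above all others, by 2.49 on the log2 scale over visceral nuclei (SE 0.17, limma adjusted p = 4.55e-11) and by 2.18 over interneurons (SE 0.17, limma adjusted p = 5.09e-10). A call between classes asked for an adjusted p under 0.05 and a log2 difference of at least 1 either way, and 11.8% of the 11292 genes tested were called between skeletal and visceral nuclei, 10.7% between skeletal nuclei and interneurons, and 7.75% between visceral nuclei and interneurons. Beside these shares, 5 of 6, 2 of 6 and 2 of 6 members were called. The authors drew the classes from these very nuclei, so a class test is a description of those labels.

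The remaining co-receptors followed other lines. Gfra2, the neurturin co-receptor, was at 17.9 ± 4.78 CPM in skeletal nuclei (SD, n = 9), 5.06 ± 2.86 in visceral nuclei and 16.7 ± 3.79 in interneurons. It was called as higher in skeletal than in visceral nuclei (log2 difference 1.2, SE 0.10, limma adjusted p = 1.3e-09) and as lower in visceral nuclei than in interneurons (−1.13, SE 0.10, limma adjusted p = 6.77e-09), while skeletal nuclei and interneurons differed by 0.07 with an interval from −0.15 to 0.28. Gfra3, the artemin co-receptor, was at 13.7 ± 6.14 CPM in visceral nuclei, 0.543 ± 0.51 in skeletal nuclei and 1.35 ± 0.808 in interneurons (SD, n = 9). The visceral libraries, from 6.927 to 25.27 CPM, overlapped neither other class. Its log2 difference was −1.69 for skeletal against visceral nuclei (SE 0.11, limma adjusted p = 1.67e-11) and 1.5 for visceral nuclei against interneurons (SE 0.11, limma adjusted p = 2.53e-10). These calls for Gfra2 and Gfra3 rest on the fold: with a pseudocount of 20 in place of 5 the log2 differences fell under 1.

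Gfra4, the persephin co-receptor, differed little: 5.33 ± 2.7 CPM in skeletal nuclei, 9.96 ± 3.36 in visceral nuclei and 8.17 ± 3.8 in interneurons (SD, n = 9). Its log2 difference of −0.53 between skeletal and visceral nuclei had a limma adjusted p = 4.99e-06 but missed the fold asked for. Ncam1, the alternative partner of GFRα1, ran against Ret: it was at 492 ± 92.6 CPM in skeletal nuclei, 1079 ± 180 in visceral nuclei and 752 ± 106 in interneurons (SD, n = 9). It was called as lower in skeletal than in visceral nuclei by 1.13 on the log2 scale (log2 difference −1.13, SE 0.06, limma adjusted p = 1.64e-12), lower in 9 of 9 libraries.

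**Figure D1:**
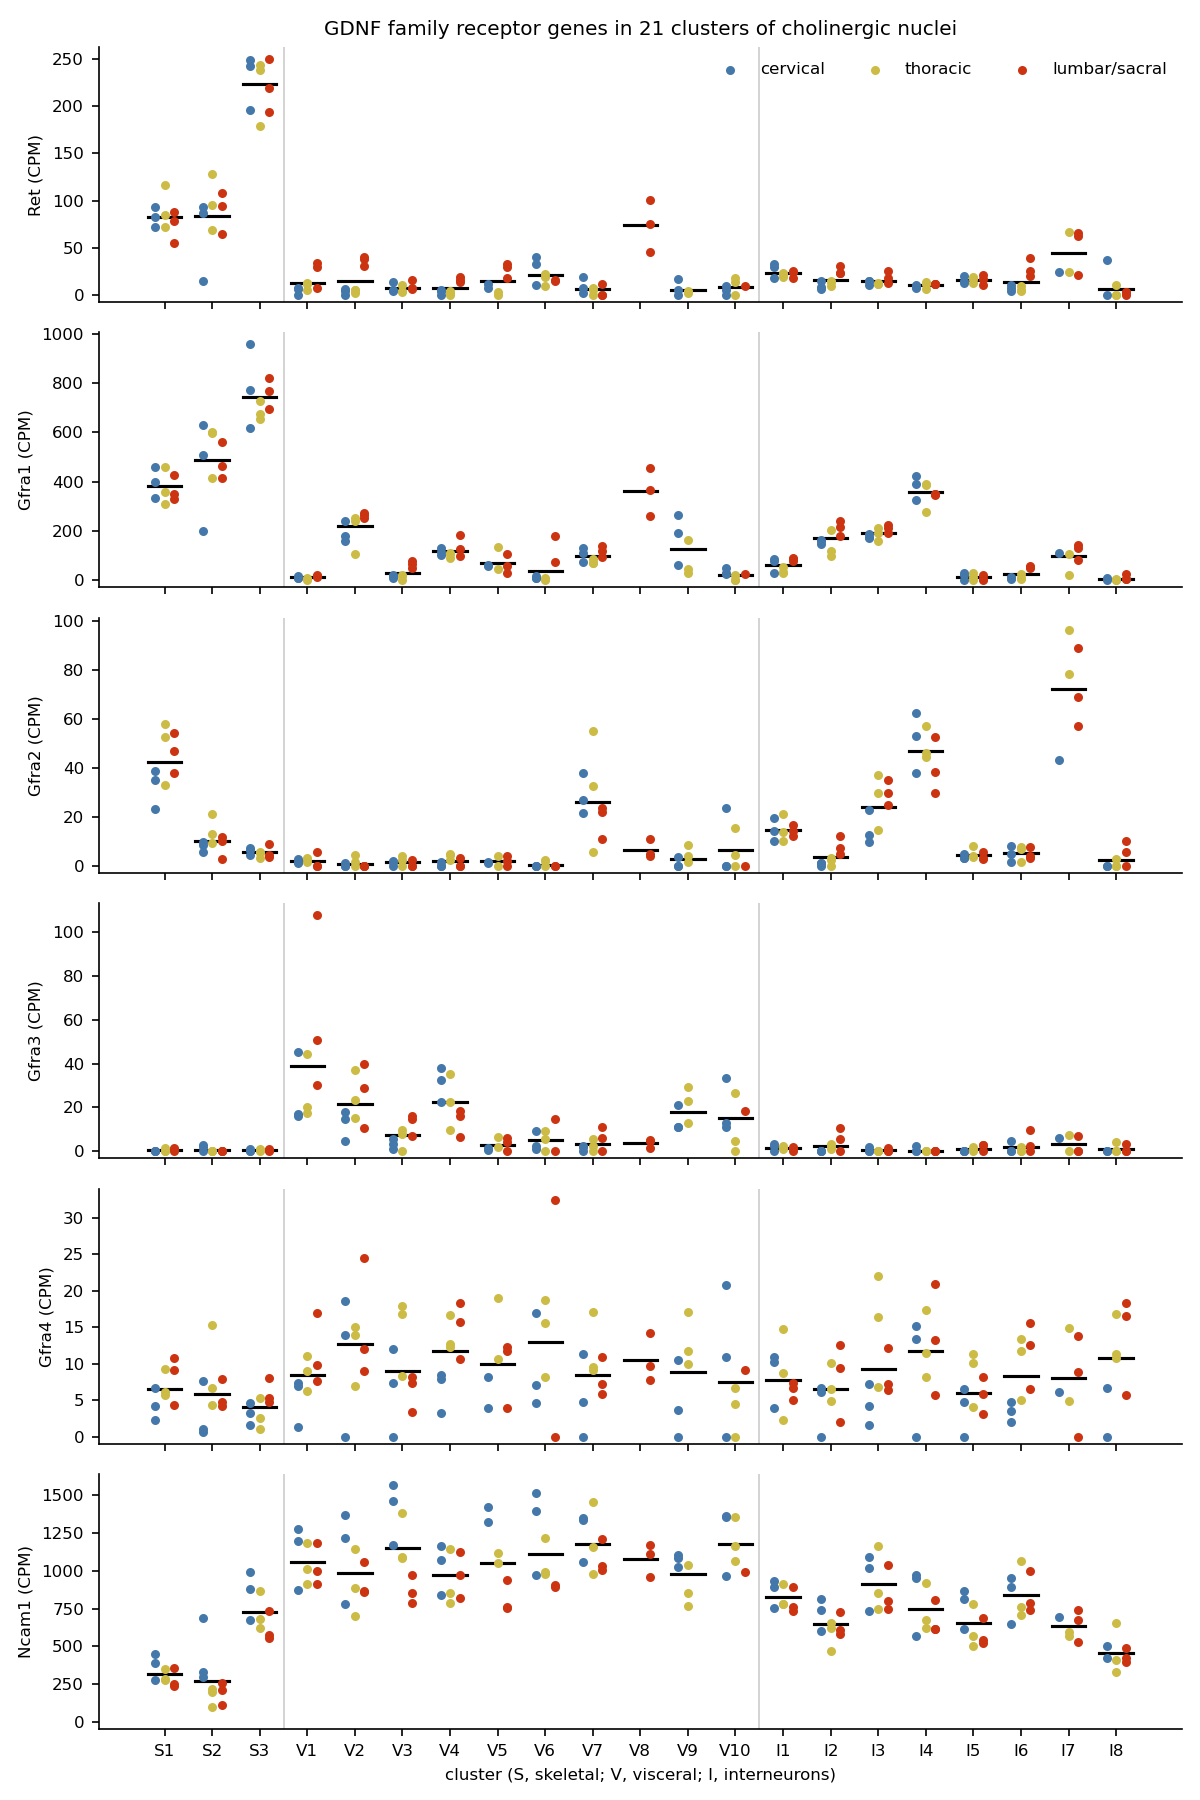
Level of each of the 6 genes (vertical axis, CPM, 1 panel a gene with its own scale) in the 21 clusters (horizontal axis). Each point is 1 library, coloured by region, and the bar is the mean over libraries. Ret and Gfra1 are highest in S3, Gfra2 in I7, I4 and S1, Gfra3 in visceral clusters, and Ncam1 is lowest in S1 and S2.

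Clusters were ordered by their mean level, and 2 neighbours were said to differ beyond their spread where the mean of their difference within the libraries they share exceeded its SD. Over the 21 clusters, Ret was highest in S3 at 223.5 ± 27.5 CPM (SD, n = 9). Within libraries S3 exceeded S2, the next cluster, by 139.9 ± 25.7 CPM, in 9 of 9 libraries and beyond the spread. S2 (83.6 ± 32.0 CPM, n = 9; 92.2 ± 20.2 CPM, n = 8, without the library labelled cervical replicate 2), S1 (82.4 ± 16.9 CPM, n = 9) and V8 (73.8 ± 27.8 CPM, n = 3) followed. Neither step, from S2 to S1 and from S1 to V8, was beyond its spread. V8 is a visceral cluster with 463 of its 467 nuclei in lumbar/sacral cord. Next came the interneuron cluster I7 at 44.0 ± 22.8 CPM (n = 6), and from I1 (23.6 CPM) down to V9 (5.19 CPM) no neighbour stood apart from the next. The nuclei with Ret outside the skeletal clusters were therefore spread over many clusters, with V8 the cluster of the highest level among them.

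Gfra1 was ordered differently below the skeletal clusters. S3 stood at 742.2 ± 103 CPM, S2 at 487.8 ± 135 and S1 at 380.9 ± 57.5 (SD, n = 9), and S2 at 524 ± 86.4 (SD, n = 8) without the library labelled cervical replicate 2. Within libraries S3 exceeded S2 by 254.4 ± 107 CPM, in 9 of 9 libraries, and S2 exceeded S1 by 106.9 ± 103 CPM, in 8 of 9 libraries. The exception was the library labelled cervical replicate 2, with 198.2 CPM in S2 and 332.5 in S1. With that library included, the second step was barely beyond its spread. V8 (361.4 ± 96.7 CPM, n = 3) and the interneuron cluster I4 (359.1 ± 43.5 CPM, n = 9) came next, and neither step, from S1 to V8 and from V8 to I4, was beyond its spread. I4 had little Ret, 10.5 ± 2.44 CPM, with a count of Ret in 8.12% of its nuclei and a count of Gfra1 in 86.5%. Gfra1 fell to 12.4 CPM in V1 and 6.66 CPM in I8, the bound on its background.

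Gfra2 peaked in a mixed set of clusters: I7 at 72.2 ± 19.96 CPM (SD, n = 6), I4 at 46.9 ± 10.4 and S1 at 42.3 ± 11.4 (n = 9). In the libraries they share, I7 exceeded I4 by 24.7 ± 24.8 CPM (SD, n = 6) and I4 exceeded S1 by 4.62 ± 20.4 CPM (SD, n = 9), both within the spread. The step from S1 to V7 (26.2 CPM) was larger than its spread, and the lowest level was 0.521 CPM in V6. The class average of Gfra2 in skeletal nuclei thus rested on S1. Gfra3 was highest in V1 (38.8 ± 29.3 CPM), V4 (22.4 ± 11.2 CPM) and V2 (21.4 ± 11.96 CPM) and declined to I4 (0.282 CPM) with no neighbour beyond its spread. Gfra4 fell from 13.0 CPM in V6 to 4.06 CPM in S3 in steps that were all within the spread. Ncam1 was highest in V10 (1181 ± 178 CPM, n = 7) and V7 (1178 ± 173 CPM, n = 9), and lowest in S1 (320.3 ± 72.1 CPM, n = 9) and S2 (268.7 ± 175 CPM, n = 9).

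Among skeletal motor neurons, the gamma cluster S3 had more Ret and Ncam1 than both others and the Type 3 cluster S1 had more Gfra2. The study's marker lists for skeletal motor neurons and for S3 hold Ret, and it used Gfra1 in naming S3, so neither gene is independent evidence on that label. Ret ran from 178.7, with a median of 238.3, to 250.1 CPM in S3, from 54.5, with a median of 82.41, to 116.1 CPM in S1, and from 14.72, with a median of 92.83, to 127.6 CPM in S2. No library of S1 or S2 reached the lowest of S3. Here 5.23% of 11465 genes were called between S1 and S2, 5.33% between S1 and S3 and 8.12% between S2 and S3, by the rule used for classes. Of the 4 members tested, 1, 3 and 2 were called.

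Ret was lower by 1.40 on the log2 scale in S1 than in S3 (log2 difference −1.40, SE 0.17, limma adjusted p = 2.93e-07) and by 1.5 in S2 than in S3 (log2 difference −1.5, SE 0.17, limma adjusted p = 6.53e-08; −1.27 without the library labelled cervical replicate 2). S1 and S2 differed by 0.10, with an interval from −0.25 to 0.45. Gfra1 had log2 differences of −0.96 between S1 and S3 (limma adjusted p = 3.5e-08) and −0.66 between S2 and S3 (limma adjusted p = 1.07e-05), both under the fold asked for. Between S1 and S2 its value was −0.30 (limma adjusted p = 0.0301). Without that library the values of Gfra1 were −0.43 between S1 and S2 and −0.54 between S2 and S3.

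Gfra2 ranged from 23.35, with a median of 38.62, to 58.06 CPM in S1, from 2.629, with a median of 9.814, to 20.98 CPM in S2, and from 3.122, with a median of 5.269, to 8.995 CPM in S3. The ranges of S1 and both other clusters did not overlap. The log2 difference was 1.67 for S1 against S2 (SE 0.17, limma adjusted p = 1.49e-08) and 2.16 for S1 against S3 (SE 0.17, limma adjusted p = 8.62e-11), in 9 of 9 libraries. Without the library labelled cervical replicate 2, Gfra2 in S2 was at 10.2 ± 5.49 CPM (SD, n = 8) and its difference for S1 against S2 at 1.68. Ncam1 was at 731 ± 151 CPM in S3, 320.3 ± 72.1 in S1 and 268.7 ± 175 in S2 (SD, n = 9), with log2 differences of −1.18 for S1 against S3 (limma adjusted p = 4.59e-06) and −1.61 for S2 against S3 (limma adjusted p = 2.08e-08). Without the library labelled cervical replicate 2, whose S2 nuclei held 688.9 CPM of Ncam1 against 101.2 to 331.2 elsewhere, S2 stood at 216.2 ± 80.8 CPM (SD, n = 8), and S1 against S2 moved from 0.43 (limma adjusted p = 0.0646) to 0.65 (limma adjusted p = 1.03e-05), a difference still under the fold asked for. S2 against S3 was then at −1.82. The 5 oligodendrocyte markers summed to 63.72 to 132.5 CPM in S1, 52.01 to 148.5 in S2 and 31.61 to 56.97 in S3, and their part in these differences was not tested. Gfra3 and Gfra4 were too low to be tested here.

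Lumbar/sacral visceral nuclei held more Ret and Gfra1 than rostral ones. Ret stood at 40.02, 29.35 and 42.79 CPM in lumbar/sacral replicates 1, 2 and 3, and from 6.221, with a median of 6.768, to 11.11 CPM in the 6 rostral libraries. Gfra1 stood at 241.4, 164.4 and 172.7 CPM in lumbar/sacral replicates 1, 2 and 3, and from 45.44, with a median of 67.69, to 86.51 CPM rostrally. For both genes every lumbar/sacral library lay above every rostral one. The log2 difference was 1.71 for Ret (SE 0.17, limma adjusted p = 0.000761) and 1.45 for Gfra1 (SE 0.21, limma adjusted p = 0.00488). These were 2 of the 5 members tested, where an adjusted p under 0.05 called 4.27% of 10031 genes. Ncam1 (−0.20), Gfra3 (−0.06) and Gfra4 (0.17) were not called.

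The cluster V8, with few nuclei elsewhere, made up 25.8% to 33.4% of the lumbar/sacral visceral nuclei. Without its nuclei Ret was at 20.6 ± 4.55 CPM in lumbar/sacral (SD, n = 3) and 7.96 ± 2.22 in rostral libraries (SD, n = 6), a log2 difference of 0.98 (limma adjusted p = 0.0334). Gfra1 was then at 120.4 ± 21.6 and 67.6 ± 15.8 CPM, a log2 difference of 0.80 that was no longer called (limma adjusted p = 0.127). Both calls were also lost, at log2 differences from 1.33 to 1.71, when replicate 1 was left out (limma adjusted p = 0.0526 for Ret and 0.101 for Gfra1) or replicate 3 (0.0855 and 0.145). With the pool of mice as a replicate block, 737 genes were called in place of 428, and Ret and Gfra1 remained called, with limma adjusted p = 0.000423 and 0.00493.

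Within single visceral clusters the direction of Ret varied. In V2 it was at 36.1 ± 5.02 CPM in lumbar/sacral libraries (SD, n = 3) and 3.64 ± 2.29 in rostral ones (SD, n = 6), in V4 at 16.2 ± 2.59 and 2.62 ± 2.37 CPM, and in V5 at 26.8 ± 8.1 (n = 3) and 5.54 ± 5.17 CPM (n = 4). The libraries of lumbar/sacral and rostral cord did not overlap in these 3 clusters, and they did in V1, where the means were 23.7 and 7.08 CPM. In V3 the means were 10.1 and 6.51 CPM, with overlap. V6 (15.4 and 22.4 CPM, with 2 lumbar/sacral libraries) and V7 (3.92 and 6.86 CPM) had the lower mean in lumbar/sacral cord. Gfra1 was at 64.6 ± 13.9 CPM in lumbar/sacral and 15.1 ± 7.4 in rostral libraries in V3, with no overlap, while in V2, with means of 263 and 196 CPM, the libraries overlapped. Some interneuron clusters had the same order: in I2 Ret was at 25.7 ± 4.06 CPM in lumbar/sacral and 11.3 ± 3.51 in rostral libraries, and in I6 at 27.9 ± 9.93 and 6.73 ± 2.86 CPM, neither with overlap. In I1 the means of Ret were 22.4 and 24.1 CPM. Gfra1 in I6 was at 54.8 ± 4.1 CPM in lumbar/sacral and 11.9 ± 8.36 in rostral libraries, also without overlap. These values are a description of clusters picked after they were seen and were not tested. The share of all genes that separate in this way was not counted for any cluster. The lumbar/sacral values of Ret rest on 37 nuclei with a count in V2, 13 in V4, 32 in V5, 43 in I2 and 21 in I6.

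Over the whole of the other classes no member was called by region. In skeletal nuclei Ret was at 147.4 ± 10.7 CPM in lumbar/sacral (SD, n = 3) and 140.8 ± 28.9 in rostral libraries (SD, n = 6), a log2 difference of 0.09 with an interval from −0.29 to 0.47 (limma adjusted p = 0.915). Gfra1 also gave 0.09 (limma adjusted p = 0.915). None of the 4 members tested was called, where 0.01% of 9999 genes were (1 gene; 4 with the replicate block, which called no member), and the median over all genes there was 0.12 on the log2 scale. In interneurons the log2 difference was 0.35 for Ret (20.2 ± 0.858 against 14.8 ± 1.2 CPM, limma adjusted p = 0.794) and 0.47 for Gfra1 (150 ± 15.1 against 107.6 ± 18.5 CPM, limma adjusted p = 0.576). The libraries did not overlap for either, but the share of all genes that separate in this way was not counted. No member was among the 0.051% of 9805 genes called (5 genes, or 44 with the replicate block, again without a member). The difference between the region effects in visceral and skeletal nuclei was itself tested: it was 1.63 for Ret (SE 0.20, limma adjusted p = 0.000892) and 1.36 for Gfra1 (SE 0.28, limma adjusted p = 0.0152), where 5.96% of 10990 genes were called. Without V8 it was 0.89 for Ret (limma adjusted p = 0.0941) and 0.71 for Gfra1 (limma adjusted p = 0.303).

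**Figure D2:**
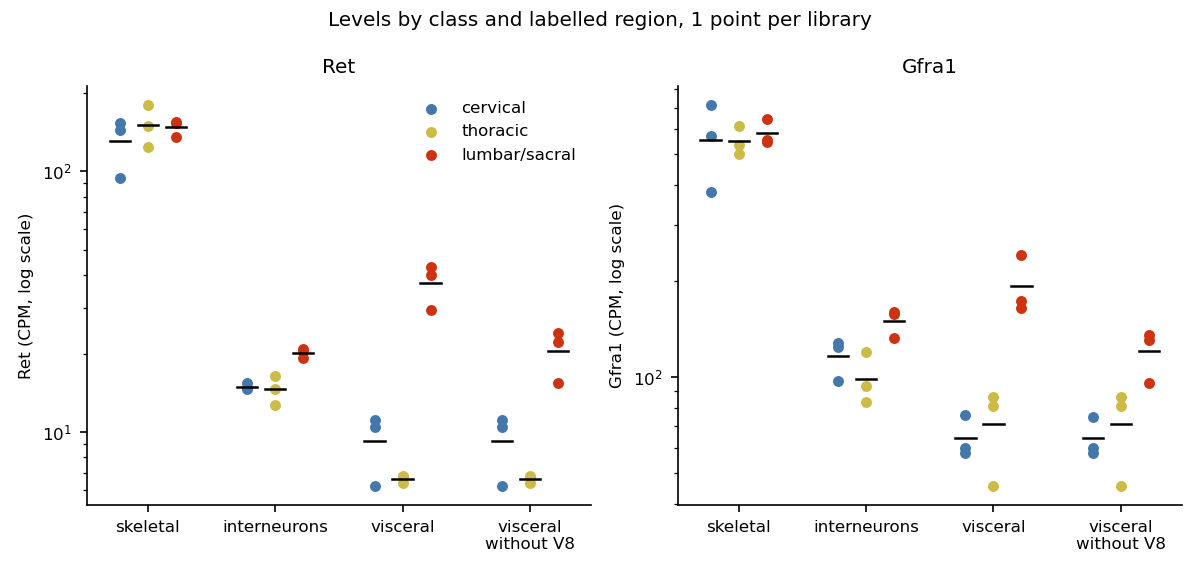
Level of Ret and Gfra1 (vertical axis, CPM on a log scale) by class, with the visceral class also shown without the nuclei of cluster V8, and by region (horizontal axis). Each point is 1 library. In visceral nuclei the 3 lumbar/sacral libraries lie above the 6 rostral ones for both genes.

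Males and females were each 1 pool of mice, so sex and pool cannot be told apart. In skeletal nuclei Ret was at 117.9 ± 21.1 CPM in the 3 libraries of the male pool and 162.1 ± 15.0 in the 3 of the female pool, a log2 difference of −0.45 (SE 0.13, limma adjusted p = 0.338). The 2 sets did not overlap, but the share of all genes that separate in this way was not counted. Without the library labelled cervical replicate 2 the value was −0.35 (limma adjusted p = 0.0461), in a fit that called 1314 genes in place of 7. A fit without cervical replicate 3 instead called 1329 genes. The call of Ret thus depended on which libraries were in the fit. Region was a term of these fits, with the cervical and thoracic labels of the male pool as given. In the main fit Gfra1 gave −0.32 (limma adjusted p = 0.53), Gfra2 −0.14 and Ncam1 0.10. No member was among the 0.0725% of 9660 genes called.

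A cell can answer GDNF through RET when both receptor subunits are made in the same cell, so their counts were read per nucleus. In skeletal nuclei 61.0 ± 9.8% held both Ret and Gfra1 (SD, n = 9), against 4.85 ± 4.68% of visceral nuclei and 4.87 ± 1.89% of interneurons. By cluster the share was 82.0 ± 9.99% in S3, 46.7 ± 15.8% in S1 and 46.5 ± 19.4% in S2 (SD, n = 9; S2 51.2 ± 14.0% without the library labelled cervical replicate 2). V8 stood at 24.2 ± 4.92% (n = 3) and I7 at 12.1 ± 5.0% (n = 6). V8 was read in lumbar/sacral libraries only, so its share and those of S1 to S3 come from unlike sets of libraries. In lumbar/sacral libraries a count of Ret was found in 31.05% of V8 nuclei, 34.9% of S1, 40.5% of S2 and 74.2% of S3. Among nuclei with Ret, 97.3% of skeletal ones also held a count of at least 1 Gfra gene, against 54.7% of visceral ones and 51.5% of interneurons.

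**Figure D3:**
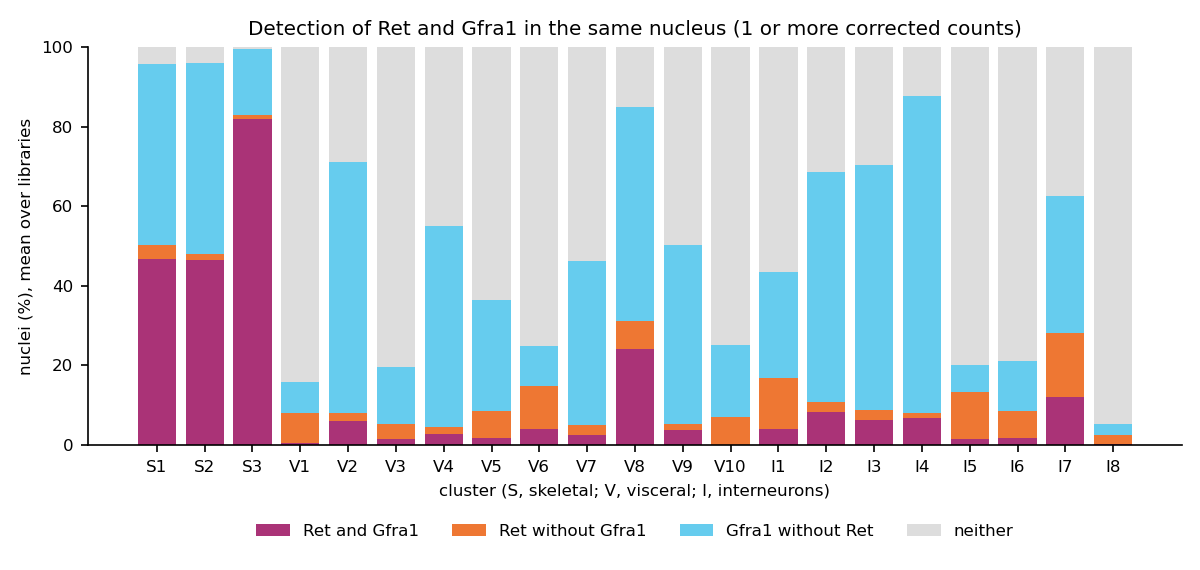
Share of nuclei (vertical axis, percent, mean over libraries) in each of the 21 clusters (horizontal axis) with a count of both Ret and Gfra1, of Ret only, of Gfra1 only or of neither. Both are found most often in S3 (82.0%), and in I4 most nuclei hold Gfra1 without Ret (79.6%).

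The shares were close to what the shares of the single genes give. If Ret and Gfra1 were detected independently in each library, both would be found in 60.2% of skeletal nuclei, 46.9% of S1, 45.8% of S2, 81.8% of S3 and 24.0% of V8. Summed within clusters and libraries, 2961 skeletal nuclei held both, where the product of shares gives 2951. In visceral nuclei the numbers were 229 and 214.2, and in interneurons 237 and 233.1. Gfra1 was found in so many skeletal nuclei (95.8 ± 2.5%; SD, n = 9) that the product cannot lie far from the observed share there.

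Within a skeletal cluster, nuclei with and without Ret held similar levels of the other members. Gfra1 was found in 91.7% of S1 nuclei with Ret and 92.5% of those without, in 95.5% and 91.8% in S2, and in 98.7% and 97.0% in S3. S2 was the cluster in which every library with at least 10 nuclei of both kinds, 7 of 7, had the higher share among nuclei with Ret. By summed counts the log2 difference of Gfra1 between nuclei with and without Ret was 0.04 in S1 (interval −0.07 to 0.15), 0.02 in S2 (interval −0.11 to 0.15) and 0.05 in S3 (interval −0.04 to 0.13). Gfra2 gave 0.04 in S1 (interval −0.22 to 0.29) and Ncam1 between −0.07 and 0.03 in the 3 clusters. Ret itself was left out of these fits, since the nuclei were split on it. By limma no other gene was called, that is 0% of 11095 genes in S1, 0% of 11216 in S2 and 0% of 10378 in S3. There 677, 788 and 891 genes had an unadjusted limma p under 0.05.

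Gfra2 gave the same kind of result in S1, the skeletal cluster where it was found most. Ret and Gfra2 were both found in 17.5 ± 11.9% of S1 nuclei (SD, n = 9), where the product of shares gives 16.7%. Of the S1 nuclei with Ret, 25.5% held both Gfra1 and Gfra2 and 93.2% at least 1 Gfra gene. The share without any Gfra gene was 6.84% among them, beside 7.20% of all S1 nuclei. Over the whole skeletal class the nuclei with Ret and Gfra2 numbered 299 against 347.8 from the product within libraries, and 295.6 once clusters were kept apart. The lower count in the class as a whole goes with the clusters, since Ret was highest in S3 and Gfra2 in S1.

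**Figure D4:**
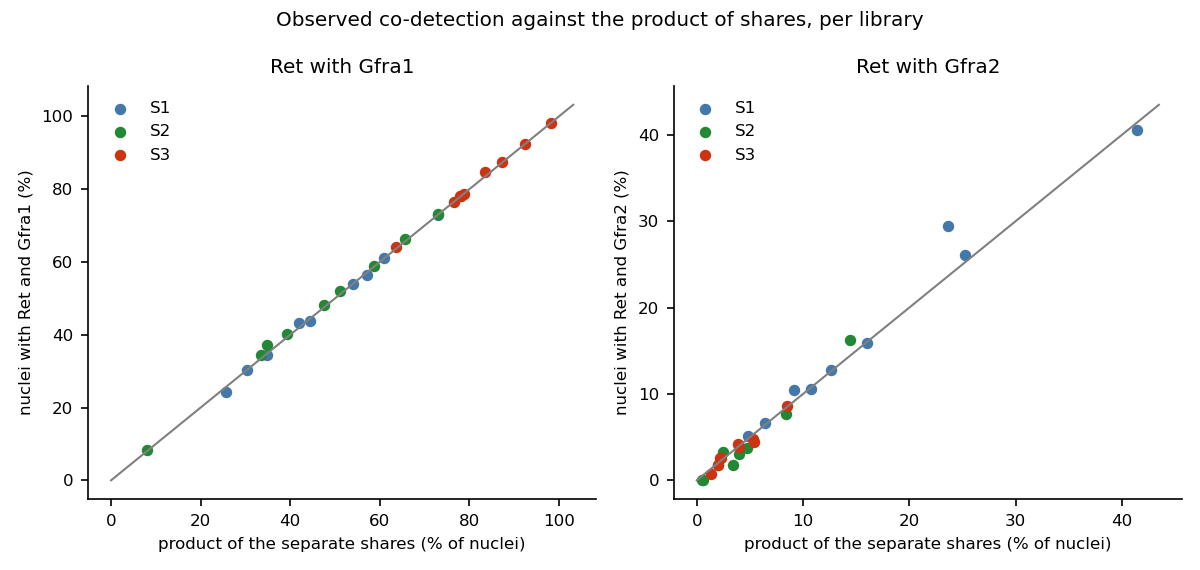
Observed share of nuclei with both genes (vertical axis, percent) against the product of the shares of the single genes (horizontal axis, percent) for Ret with Gfra1 and Ret with Gfra2 in S1, S2 and S3. Each point is 1 library and the line marks equality. The points lie along the line.

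No count of any Gfra gene was found in 45.3% of visceral nuclei and 48.5% of interneurons with Ret, beside 51.9% of all visceral nuclei, 51.1% of all interneurons and 4.04% of all skeletal nuclei. At least 1 Gfra gene was found in 79.4% of V8 nuclei with Ret, in 84.5% of those of V2 and in 86% of those of I4, but in 21.7% of those of V1, 24.7% of those of V6 and 27.0% of those of I5. Ncam1 or a Gfra gene was found in at least 96.2% of nuclei with Ret in every cluster with 10 or more such nuclei, Ncam1 itself being nearly everywhere. Most of these nuclei held a single count of Ret: 86.3% in visceral nuclei and 89.1% in interneurons, against 40.0% in S3, 73.1% in S1 and 69.2% in S2.

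These shares moved with depth. Both Ret and Gfra1 were found in 24.2% of S1 nuclei in lumbar/sacral replicate 1, the shallowest library, and in 73.0% in cervical replicate 2, the deepest. Every nucleus was then thinned to 4600 corrected counts, leaving out 3.84% of skeletal, 5.86% of visceral and 16% of interneuron nuclei. The nuclei left out all came from lumbar/sacral replicate 1 (44.1% of its nuclei) and lumbar/sacral replicate 3 (13.6%). After thinning, the share with both was 41.4 ± 8.38% in skeletal nuclei, 60.5 ± 7.74% in S3, 25.7 ± 4.98% in S1 and 28.5 ± 13.9% in S2 (SD, n = 9). S3 remained the highest of the 3 clusters. V8, in lumbar/sacral libraries only, was then at 19.3 ± 11.5% (SD, n = 3). The product of shares at that depth was 39.8% in skeletal nuclei, 60.9% in S3, 24.7% in S1 and 28.4% in S2.

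The ligands were hardly read. Of the 5 listed, 4 were in the matrix: Gdnf in 77 nuclei (0.48%), Nrtn in 73, Artn in 12 and Gdf15, whose receptor GFRAL also signals through RET, in 9. None passed the filter on low values.

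The listed partners and targets of RET were read against the share of all genes called. For skeletal against visceral nuclei, where 11.8% of all genes were called, 2 adaptors were higher and 2 lower of 23 tested, with a median log2 difference of −0.15 where that of all genes was −0.04. Among other receptors and co-receptors 1 was higher of 6 (median 0.32), and among targets and feedback genes none of 3 was called (median 0.55). The called genes were the adaptor Shc3 (1.59), which links receptor kinases to RAS, the ubiquitin ligase Cblb (1.29), the growth factor receptor inhibitor Lrig1 (1.28), the adaptor Grb10 (−1.98) and Dok6 (−1.03), an adaptor that binds RET. Grb10 was at 65.8 CPM in skeletal and 269.9 CPM in visceral sums.

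Against interneurons, where 10.7% of all genes were called, skeletal nuclei had 4 adaptors higher and 2 lower of 23 (median 0.07; all genes 0.02), 2 other receptors higher of 6 (median 0.28) and 1 target higher of 3 (median 0.87). The largest log2 differences were Grb10 (−1.75), Shc3 (1.74), Cblb (1.52), Lrig1 (1.46), the transcription factor Etv1 (1.33) and the PI3-kinase subunit Pik3r1 (1.29). For visceral nuclei against interneurons, where 7.75% of all genes were called, 3 adaptors of 23 and 1 target of 3 were higher, namely the docking protein Gab1 (2.09), Dok5 (1.26), the RET-binding protein Pdlim7 (1.17) and Etv1 (1.79), with medians of 0.22 and 0.32 where that of all genes was 0.05. None of the 6 other receptors was called there.

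Between skeletal clusters 6 other receptors, 23 adaptors and 5 targets were tested. The S2 values here include the library labelled cervical replicate 2 and are not given without it. S1 against S2, where 5.23% of all genes were called, gave Etv1 (−2.0), Lrig1 (−1.41) and Gab1 (−1.33), all lower in S1. S1 against S3 (5.33% of all genes) gave Dok5 (−1.28). S2 against S3 (8.12% of all genes) gave Etv1 (1.62), Dok5 (−1.27) and Cblb (−1.14). Etv1 was thus higher in S2 than in both other clusters, whereas Ret was highest in S3.

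Patterns most like each member over the 21 clusters were sought by Pearson's r of the mean log2 levels, over 14465 genes, as a description in which clusters share libraries and depth. For Ret they were A930009A15Rik (0.896), Tex15 (0.885) and Tgfbr2 (0.866), and for Gfra1 the overlapping antisense gene Gm16277 (0.888), Slc35f2 (0.821) and Ryr3 (0.811). For Gfra2 they were Trps1 (0.836), Plch2 (0.803) and Rnf144b (0.749). Gfra3 was followed by Ppp1r17 (0.88), Mme (0.877) and Gatm (0.871), Gfra4 by Tmem55b (0.826), Gm12905 (0.797) and Qtrt1 (0.788), and Ncam1 by Eef1a1 (0.925), Ddx5 (0.916) and Inpp5f (0.915). Between Ret and Gfra1 themselves r was 0.621, the clusters V2, I3 and I4 being high in Gfra1 and low in Ret.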

How the data were processed

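Nuclei were sorted for GFP and DRAQ5 and sequenced from 9 libraries (10x Chromium 3′, v3). Read alignment by the authors used Cell Ranger 3.1.0 and a pre-mRNA reference of GRCm38 (mm10), and they normalized the separately barcoded samples with SCTransform in Seurat. The deposited matrix of cholinergic nuclei does not name its unit. It was taken to hold the authors' SCTransform-corrected counts as deposited, a model score and not raw counts, because its whole numbers sum to nearly the same total in every nucleus of a library (SD 5.85% to 10.7% of the mean) while library medians differ. How low genes were altered cannot be read back. Cluster, class and library of each nucleus come from the deposited labels, and no reads or raw counts were analysed here. Precision is set by the median total of each library and by 9 libraries from 3 pools of 4 mice, so p-values measure the spread between libraries, or within libraries where the library is a term, and not between independent mice.

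Corrected counts were summed per library and class, cluster or Ret detection (at least 10 nuclei a sum), scaled to CPM and tested on log2(CPM + 5) with limma 3.58.1 (R 4.3.3, trend), for genes of at least 10 CPM in 3 sums. Fold changes are on that scale, which understates the change of low genes. P-values were adjusted by Benjamini-Hochberg over all genes tested. Class and cluster fits carried the library as a term, region fits none and the sex fit the region. Library sums and shares were computed with Python 3.11.15, and doublets were called by Scrublet in scanpy 1.11.5 (180 nuclei, 1.12%, kept in the main values). The fits were also run on simulated sums with planted changes. Those sums held no mice shared between libraries, so that run does not bear on how the pairing affects p-values.

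Same-numbered libraries share mice by the labels' pools. Their deviations from the region means correlated at a median of 0.749 in interneurons, 0.673 in skeletal and 0.65 in visceral sums. The lowest values were −0.191, −0.22 and −0.136. Between numbers the medians were −0.454, −0.442 and −0.401, and the highest values 0.612, 0.575 and 0.595. Deviations within a region sum to 0, which by itself pushes values between numbers below 0, so these do not bear on the pairing. The pairing was taken from the animals and fitted as a replicate block, as an alternative to the main region fits.

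The members and gene lists were chosen with earlier results of these data known. All 6 members are named everywhere, up to 6 genes of the pathway lists with the largest log2 difference among those called in a comparison of classes or clusters, and the 3 genes most like each member. Alternatives were median-of-ratios scaling, no filter, a pseudocount of 20, leaving out doublets, each library and each pool, thinning to 4600 counts and detection at 2 counts. Leaving out V8 or the male pool's rostral libraries was chosen after seeing the data.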

Additional observations from a re-analysis of the deposited data

Results flagged for a closer look

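In 5 of 36 groups of 9 libraries, 1 library lay apart from the rest by Dixon's test, where chance flags about 1 group in 20. In S2 the library labelled cervical replicate 2 had Gfra1 at 198.2 CPM against 414.6 to 630.4 in the others, and Ncam1 at 688.9 CPM against 101.2 to 331.2. These are the S2 nuclei whose Tns1, Zeb2 and Pax2 levels go against their label. Gfra2 in interneurons was at 25.04 CPM in lumbar/sacral replicate 1, the shallowest library, against 12.64 to 18.71. Gfra4 in visceral nuclei was at 2.141 CPM in cervical replicate 3 against 8.465 to 13.59, and Gfra4 in S2 at 15.26 CPM in thoracic replicate 1 against 0.6044 to 7.886.

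The effect of lumbar/sacral against rostral cord differed between visceral and skeletal nuclei by 1.63 on the log2 scale for Ret (limma adjusted p = 0.000892) and by 1.36 for Gfra1 (limma adjusted p = 0.0152), tested as the difference itself.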

How the results depend on the processing

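No called value of a member changed direction under the alternatives run. Values near 0 that were not called did when a library or pool was left out, such as Ret in S1 against S2 (−0.15 to 0.25), Gfra2 in skeletal nuclei against interneurons (−0.02 to 0.21), and by region Gfra1 in skeletal nuclei (−0.03 to 0.23) and Gfra3 in visceral nuclei (−0.23 to 0.10). With a pseudocount of 20 fewer genes reached the fold asked for: 669, 626 and 429 between classes (skeletal against visceral, skeletal against interneurons, visceral against interneurons), 293, 341 and 488 between S1 and S2, S1 and S3, and S2 and S3, and 2 between nuclei with and without Ret in S3. Gfra2 (0.59 against visceral nuclei, −0.55 for visceral nuclei against interneurons) and Gfra3 (−0.69 and 0.64) then lost their class calls. Leaving out replicate 1 took Gfra2 in visceral nuclei against interneurons to −1.0, no longer called, and Gfra1 in S1 against S3 to −1.01, newly called. The region counts were 12 genes in skeletal nuclei without a filter and 3 in interneurons with median-of-ratios scaling. The replicate block gave 4 in skeletal nuclei, 737 in visceral nuclei and 44 in interneurons, and changed no member's call. Without V8 visceral nuclei gave 173, and without both rostral libraries of the male pool interneurons gave 13. Leaving out each library or pool gave 0 to 1 genes in skeletal nuclei, 0 to 471 in visceral nuclei, 0 to 9 in interneurons, 0 to 1329 between the sexes (1314 without cervical replicate 2 and 1329 without cervical replicate 3), 0 to 2 for Ret detection in S2 and 0 to 6 in S3. The causes were not tested. The share of nuclei with both Ret and Gfra1 was, after thinning, 41.4% in skeletal nuclei, 2.31% in interneurons, 25.7% in S1 and 60.5% in S3. At 2 or more counts it was 29.9% in skeletal nuclei, 0.283% in interneurons, 13.0% in S1, 14.4% in S2 and 52.2% in S3. Depth limits all such shares: in S1, thinning took Gfra2 from 30.6% to 16.1% and Ret from 50.2% to 30.75% of nuclei.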
